A study of Mus musculus with 14 samples.

Results

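The SR proteins and the heterogeneous nuclear ribonucleoproteins (hnRNPs) were examined as 31 of the 24091 genes counted in spleen T cells, chosen by their symbols: 11 genes whose symbol is Srsf followed by a number and 20 genes whose symbol begins with Hnrnp. T cells, 200000 per mouse, were sorted from the spleens of 8 Mir142+/+BCR-ABL mice (CP CML, a model of chronic phase chronic myeloid leukemia) and 6 Mir142-/-BCR-ABL mice (BC CML, a model of blast crisis), and mRNA was sequenced in 1 library per mouse. All mice carried SCLtTA/BCR-ABL, in which a transactivator under stem cell leukemia gene control switches on BCR-ABL once tetracycline is withdrawn, were of the C57Bl/6j background and 6 to 10 weeks old, of both sexes, and had been without tetracycline for 3 weeks. The BC CML mice lacked Mir142 in every tissue, leukemic cells and T cells included, and no library came from a mouse without BCR-ABL. The mouse identifiers of the CP CML libraries share one prefix and those of the BC CML libraries another. What the prefix stands for is not stated, and genotype cannot be told apart from it.

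SR proteins carry RNA recognition motifs and a domain rich in arginine and serine, through which they recruit the spliceosome to exons that hold their binding sites. hnRNPs bind nascent transcripts and often act against SR proteins by hiding splice sites or exons, and several also steer mRNA export, stability and translation. In T cells, the best known case is Ptprc (CD45), whose variable exons are skipped upon activation under the control of Hnrnpll and Hnrnpl. Read counts per gene measure how much mRNA of a splicing factor is present, not which exons are joined.

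The groups differ in Mir142, whose hairpin gives 2 mature microRNAs. They are shown from RefSeq (GRCm38.p6) with the seed, bases 2 to 8, in capitals, since the seed mainly decides which 3′UTRs can be matched. miR-142-3p lies at chr11:87756903-87756925 and miR-142-5p at chr11:87756867-87756887, both on the plus strand.
mmu-miR-142a-3p: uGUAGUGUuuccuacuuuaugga
mmu-miR-142a-5p: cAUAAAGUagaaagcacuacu

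An 8-base match (8mer) pairs with the whole seed and is followed by an A, and reads ACACTACA for miR-142-3p and ACTTTATA for miR-142-5p. The longest 3′UTR of each gene in GENCODE vM21, which is on the build of the counts (mm10), was searched on the transcribed strand, and all 31 members had one. The 8mer of miR-142-3p stood in 1 member, Hnrnpu, and that of miR-142-5p in 4, Hnrnph3, Hnrnpm, Srsf10 and Srsf6, which holds 2 of them. Over the 11509 tested genes with a 3′UTR, 3.04% held the first, 5.22% the second and 7.99% either, against 16.1% (5 genes) of the members, whose 3′UTRs had a median length of 1308 bases against 1187. Srsf1 held only a 7-base match to miR-142-5p, CTTTATA. Counting 7-base matches as well, 3 members (9.68%) held a match to miR-142-3p, against 12.1% of the tested genes with a 3′UTR. A match to miR-142-5p of either length stood in 10 members (32.3%), against 23.5%. The 3′UTR searched for Hnrnpr, of 19419 bases, runs past the end of the gene as counted. Its match to miR-142-3p and some of those to miR-142-5p lie beyond that end. Windows of 30 bases are printed with the match in capitals for all 8mers, the longest kind of match searched, and for the match of Srsf1 because that gene lies near Mir142.
Hnrnpu (chr1:178327582-178327611, minus strand): cctcagaaataACACTACAaagtagtatct
Hnrnph3 (chr10:63015537-63015566, minus strand): gtatttcaagaACTTTATAacgactgaagg
Hnrnpm (chr17:33648548-33648577, minus strand): agcagactctcACTTTATAacctaggcaaa
Srsf10 (chr4:135868354-135868383, plus strand): gttaataaataACTTTATAgtgtcacaaat
Srsf6 (chr2:162935411-162935440, plus strand): aagtaaaaggaACTTTATAgttagtgccac
Srsf6 (chr2:162935771-162935800, plus strand): aaatgcttcatACTTTATAagtaaagcgct
Srsf1 (chr11:88053132-88053161, plus strand): cttcctcccagCTTTATAtttttaatagtt

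Of these 5 members with an 8mer, Hnrnph3 rose in BC CML and the other 4 did not pass the test. Over all tested genes, the 350 with an 8mer of miR-142-3p had a median log2 fold change of 0.23, with 57.4% higher and 15.1% lower, and the 601 with an 8mer of miR-142-5p had a median of 0.048, with 41.8% higher and 27.0% lower, against a median of -0.0083, 32.6% higher and 32.7% lower for all 12248 tested genes. The members with an 8mer are too few to be read against these shares. Srsf9, Srsf12 and Hnrnpll, the 3 members that changed most, held no 8mer or 7-base match of either kind. A match is a description of these letters and not a measured binding site.

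Libraries held between 15703702 and 19914531 counted reads, and TMM factors lay between 0.982 and 1.02. Mir142 had 302 to 650 reads in the CP CML mice and 0 in the BC CML mice, at least 168-fold lower against a floor of 3 reads per library. T cell markers were high in every library, with 8 identity genes (Cd3e, Lck and others) summing to 2815 to 3223 CPM in CP CML and 3164 to 3521 in BC CML. Of these 8 genes, 4 rose and 1 fell. Markers of other states also moved with the groups. Of 10 naive T cell genes, 9 fell and 1 rose, and their sum was 6343 to 7935 CPM in CP CML against 3823 to 5446 in BC CML. Of 12 myeloid genes, 10 rose and 0 fell, and their sum was 71.1 to 449 CPM in CP CML against 548 to 1363 in BC CML, so that the groups did not overlap in either sum. Of 8 B cell genes, 6 rose, with sums of 60.7 to 180 CPM against 103 to 511. Of 5 tested erythroid genes 2 rose, and the sums over the 7 erythroid genes with counts listed were 149 to 183 against 171 to 219. Among 10 proliferation genes 0 rose and 1, Pcna, fell. No marker was at 0 in all mice. The part of these shifts in the results on splicing factors was examined only with a myeloid score as a covariate and was otherwise not tested. Values with the score are given beside the called members. For further lists of splicing genes they are given as counts and for named genes whose call changed. In bulk samples, fewer cells of a type and less RNA per cell cannot be told apart.

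**Figure D1:**
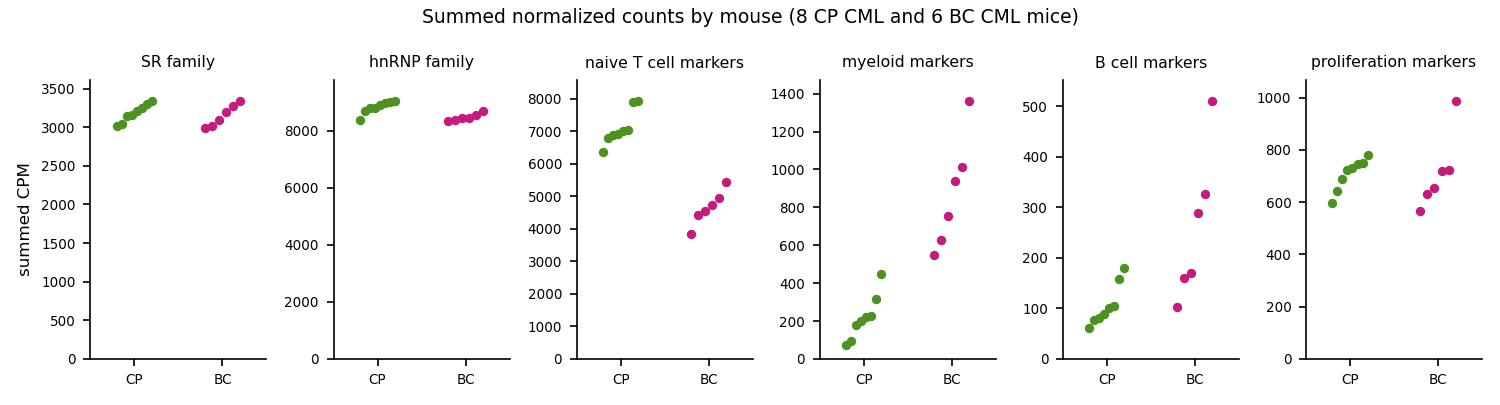
Summed normalized counts (CPM, vertical axes from 0) of the SR family, the hnRNP family and 4 marker lists, with 1 point per mouse (8 CP CML in green, 6 BC CML in magenta). The family sums overlap between the groups, whereas the naive T cell sums lie between 3823 and 5446 in BC CML, below all CP CML mice, and the myeloid sums between 548 and 1363, above all CP CML mice.

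The 2 groups were set against each other in one fit over the 12248 genes that passed the filter on low counts, all 31 members among them, using the quasi-likelihood test of edgeR and p-values adjusted by Benjamini-Hochberg, and a gene is called at an adjusted p-value below 0.05. All p-values below come from this test. Values given with the myeloid score come from the same test with the mean log2 CPM of the 12 myeloid genes as a covariate. The summed counts of these 12 genes did not overlap between the groups, so the score and the group cannot be fully told apart. The greatest changes were the rises of Srsf9 and Hnrnpll and the fall of Srsf12, and 15 of the 31 members were not called. Of the 11 SR genes, 2 rose (Srsf9 and Srsf1), 3 fell (Srsf12, Srsf11 and Srsf7) and 6 were not called. Of the 20 hnRNP genes, 3 rose (Hnrnpll, Hnrnph3 and Hnrnpk), 8 fell and 9 were not called. Among all tested genes 65.2% were called, 32.6% higher and 32.7% lower, and among the 5820 tested genes with an average log2 CPM of at least 5, where 30 of the members lie, 69.1% were called (30.7% higher and 38.4% lower). The called share was 45.5% for SR genes and 55.0% for hnRNP genes, below both backgrounds. The median log2 fold change was 0.011 for the SR genes and -0.076 for the hnRNP genes, and -0.0083 for all tested genes. The median size of the change regardless of sign was 0.090 and 0.14 for the families, against 0.28 for all tested genes and 0.21 for those with an average log2 CPM of at least 5. No test was made over the families.

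**Figure D2:**
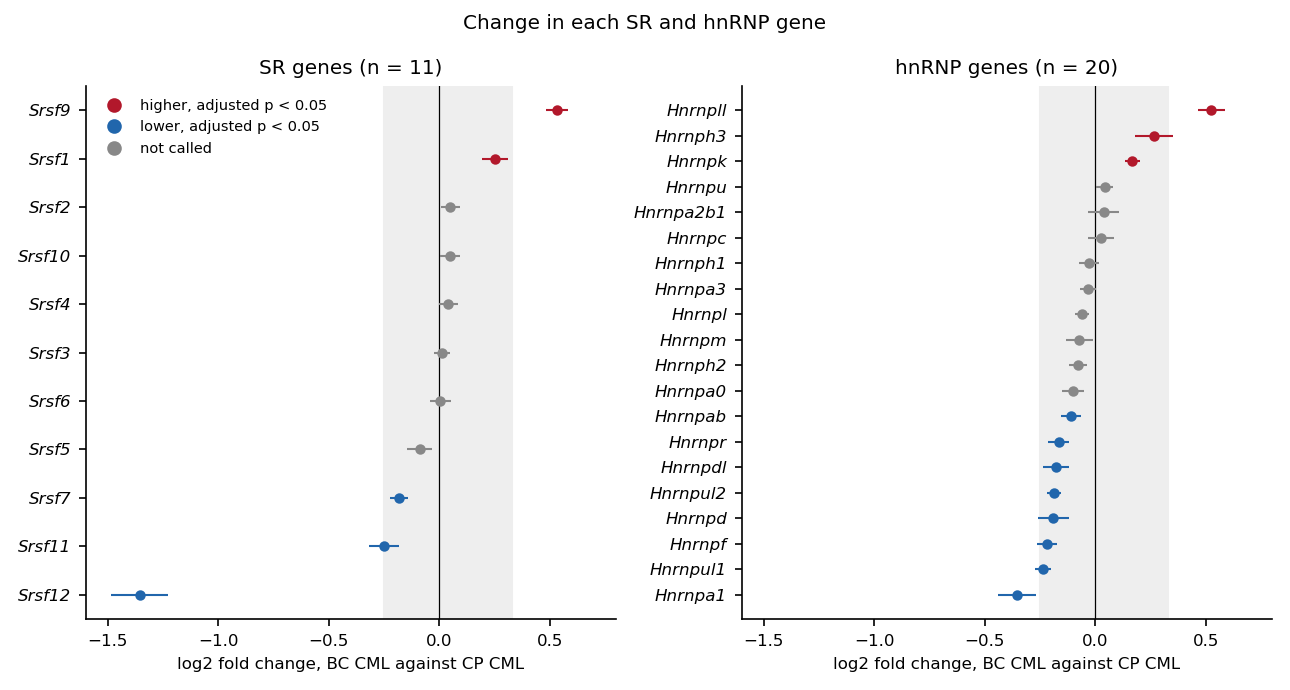
Log2 fold change of BC CML against CP CML (horizontal axis; point and bar, estimate and standard error) for the 11 SR and 20 hnRNP genes, coloured by call, with the middle 50% of all tested genes shaded. Srsf12 at -1.36, Srsf9 at 0.53, Hnrnpll at 0.53, Hnrnpa1 at -0.35 and, at its edge, Srsf11 at -0.25 lie outside the shaded band, and the other members lie within it.

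A change greater than 1.2-fold, tested as such with edgeR's glmTreat, was called for 3 of the 31 members, Srsf9 and Hnrnpll higher and Srsf12 lower, where 35.1% of all tested genes were called (20.8% higher and 14.3% lower) and, among genes with an average log2 CPM of at least 5, 14.9% higher and 13.5% lower. Every BC CML mouse lay above every CP CML mouse for 4 members (Srsf9, Srsf1, Hnrnpll and Hnrnpk) and below for 5 (Srsf12, Srsf7, Hnrnpul1, Hnrnpf and Hnrnpul2), where the groups did not overlap for 36.9% of all tested genes, 19.3% above and 17.6% below, and for genes with an average log2 CPM of at least 5 for 19.4% above and 22.8% below. The spread between mice was small, with a median coefficient of variation over the members of 6.08% in CP CML and 5.89% in BC CML. It was widest for Hnrnpa1 in CP CML (14.1%) and for Srsf12, the gene with the fewest reads, in BC CML.

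Together the 11 SR genes took 3190 ± 97.1 CPM of the total reads, without TMM, in CP CML (SD, n = 8) and 3139 ± 111 in BC CML (SD, n = 6), ranges that overlapped. The 20 hnRNP genes took 8848 ± 170 (SD, n = 8) and 8440 ± 71.5 (SD, n = 6) CPM, and every BC CML mouse (8352 to 8522) lay below every CP CML mouse (8578 to 9102). A single gene shifts this share: Tspoap1, which starts next to the deleted Mir142, rose from a mean of 12.4 to 23084 CPM. With the reads of Tspoap1 left out of the totals, the hnRNP difference was -210.5 instead of -408.8 CPM and its ranges overlapped (8578 to 9102 and 8555 to 8743), and the SR difference turned from -51.1 to 22.8. With TMM factors the hnRNP sums also overlapped, at 8389.7 to 9058 CPM in CP CML and 8347 to 8683 in BC CML.

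Levels between genes were compared per kilobase of the length listed with the counts (RPKM). Among SR genes Srsf5 was highest, with 391 ± 19.6 RPKM in CP CML (SD, n = 8) and 367 ± 40.2 in BC CML (SD, n = 6). Srsf2, Srsf6, Srsf7, Srsf3 and Srsf1 followed, with Srsf2 at 145 ± 7.61 and Srsf1 at 76.0 ± 7.61 RPKM in CP CML. Srsf7, Srsf3 and Srsf1 were close in BC CML, at 93.0 ± 2.63, 88.3 ± 5.04 and 90.6 ± 2.88 RPKM, and these neighbours differed by no more than about their spread. Srsf11 lay below them, Srsf10, Srsf9 and Srsf4 between 27.9 and 40.3 RPKM, and Srsf12 far lower, at 1.71 ± 0.210 RPKM in CP CML and 0.668 ± 0.0936 in BC CML. Srsf9 was below Srsf4 and Srsf10 in CP CML and above both in BC CML (40.3 ± 2.62, against 31.3 ± 1.34 and 36.6 ± 2.02 RPKM).

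Among hnRNP genes Hnrnpa2b1, a core protein of hnRNP particles, was highest at 391 ± 44.3 RPKM in CP CML and 402 ± 32.8 in BC CML. Hnrnph1, Hnrnpa1 and Hnrnpu followed at 239.7 ± 12.3, 234 ± 33.1 and 203 ± 11.2 RPKM in CP CML, and Hnrnpa1 lay within its own SD of each of the other 2. In BC CML the order among these neighbours differed, with Hnrnpk (188 ± 7.21 RPKM) and Hnrnpa1 (183 ± 16.6 RPKM) side by side. The lowest members were Hnrnpd, Hnrnph3, Hnrnpr and Hnrnpll, the last at 11.4 ± 0.752 RPKM in CP CML and 16.4 ± 1.75 in BC CML.

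**Figure D3:**
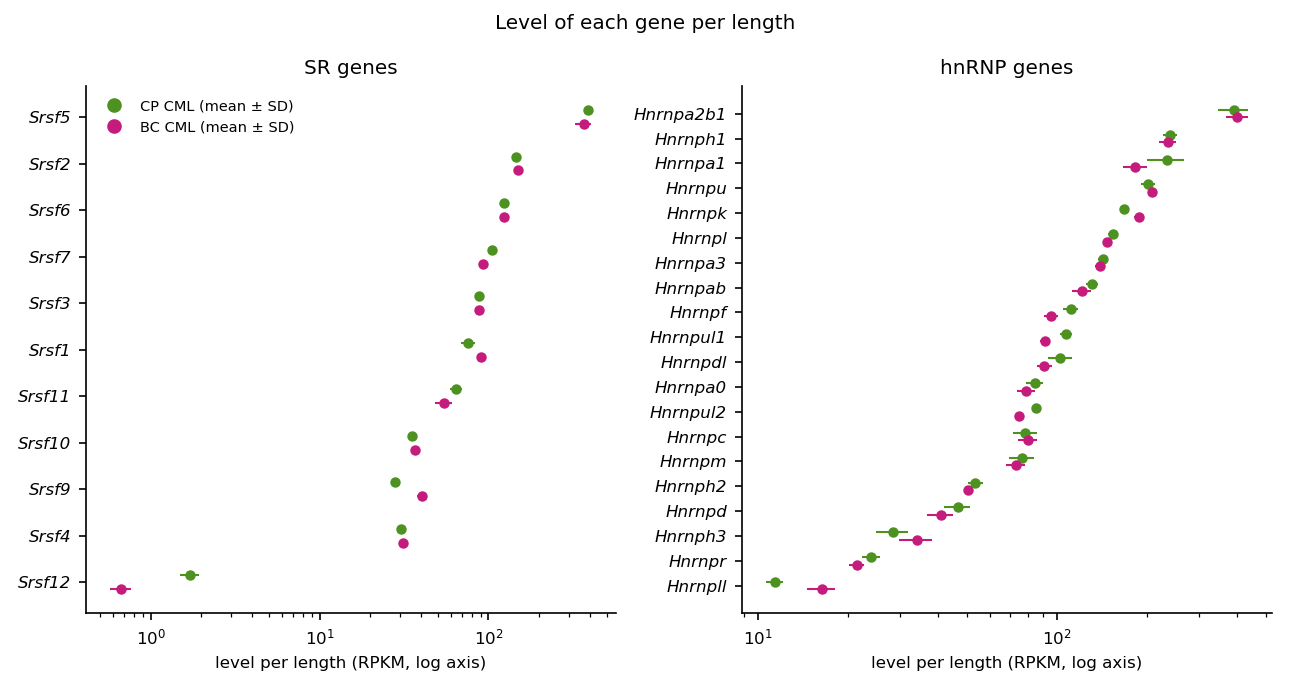
Level per length (RPKM, log axis) of each member in CP CML (green, n = 8) and BC CML (magenta, n = 6), as mean and SD, sorted by level within each family. Srsf5 and Hnrnpa2b1 are the highest in each group, near 391 RPKM in CP CML, and Srsf12 stands apart at 1.71 and 0.668 RPKM.

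Srsf9 encodes a small SR protein built like that of Srsf1, with a pair of RNA recognition motifs and a short arginine-serine tail (chr5:115327177-115333080, plus strand). Its lowest, median and highest normalized counts were 32.2, 34.3 and 38.0 CPM in CP CML and 44.4, 51.7 and 53.0 CPM in BC CML. All 6 BC CML mice were above all 8 CP CML mice. The gene rose from a mean of 34.8 ± 1.87 (SD, n = 8) to 50.2 ± 3.27 (SD, n = 6) CPM, a log2 fold change of 0.53 (SE 0.049, adjusted p = 3.91e-08). With the myeloid score as a covariate it was 0.45 (SE 0.087, adjusted p = 5.06e-04).

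Srsf1, which binds purine-rich exonic enhancers and shuttles between nucleus and cytoplasm, lies on the same chromosome and strand as Mir142 (chr11:88047373-88053757, plus strand), 290.445 kb from its end. Its normalized counts were 337, 432 and 472 CPM in CP CML and 489.9, 496 and 526 CPM in BC CML, with a wider spread in CP CML and no overlap. Srsf1 rose with a log2 fold change of 0.25 (SE 0.058, adjusted p = 0.00102). The call was lost with the myeloid score as a covariate, at 0.22 (SE 0.10, adjusted p = 0.105). The log2 ratio of Srsf9 to Srsf1 counts in a mouse, chosen after the values were seen, was -3.78 to -3.27 in CP CML and -3.50 to -3.21 in BC CML, and the groups overlapped. Between Mir142 and Srsf1 the table lists 9 genes, of which 4 were tested. Tspoap1, nearest to Mir142, rose by 10.85 on the log2 scale and Mpo, a myeloid granule enzyme and one of the myeloid markers, rose by 2.36. Mks1 fell by 0.62 on the log2 scale and Dynll2, the tested gene nearest to Srsf1, had a log2 fold change of 0.13 (SE 0.077, adjusted p = 0.158).

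Srsf12 encodes an SR-related protein known to repress splicing and is expressed in few tissues (chr4:33208991-33233340, plus strand). It had 62 to 98 reads in each CP CML mouse and 28 to 43 in each BC CML mouse. Its normalized counts were 3.95, 4.93 and 6.01 CPM in CP CML and 1.47, 2.04 and 2.21 CPM in BC CML, without overlap. Srsf12 fell with a log2 fold change of -1.36 (SE 0.13, adjusted p = 5.85e-08), the greatest change among the members and at the lowest level. With the myeloid score it was -1.55 (SE 0.21, adjusted p = 1.74e-05). Against its relative Srsf10 within each mouse, a comparison free of the scaling and chosen after the values were seen, the log2 ratio of counts was -5.64 to -5.23 in CP CML and -7.18 to -6.62 in BC CML.

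Srsf7 encodes the SR protein with a zinc knuckle, which also takes part in mRNA export. It ran at 299.8, 312 and 342 CPM in CP CML and 273, 279.6 and 295 CPM in BC CML, without overlap. Its log2 fold change was -0.18 (SE 0.039, adjusted p = 5.68e-04), and with the myeloid score -0.15 (SE 0.070, adjusted p = 0.097). Srsf11, whose protein meets factors bound at the 3′ splice site, ran at 361, 413 and 444 CPM in CP CML and 291, 359 and 374 CPM in BC CML, and the groups overlapped. It fell with a log2 fold change of -0.25 (SE 0.069, adjusted p = 0.00392). With the myeloid score little of this difference was left, at -0.040 (SE 0.10, adjusted p = 0.787).

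The 6 SR genes that were not called were Srsf2, Srsf10, Srsf4, Srsf3, Srsf6 and Srsf5, with log2 fold changes between -0.090 (Srsf5) and 0.048 (Srsf2), standard errors between 0.037 and 0.058, and adjusted p-values between 0.187 and 0.948. Among them are Srsf2, a nuclear SR protein that is mutated in myeloid neoplasms, and Srsf3, the smallest family member. Srsf2 ran at 268, 292 and 314 CPM in CP CML and 283, 299 and 326 CPM in BC CML. The groups overlapped for each of the 6.

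**Figure D4:**
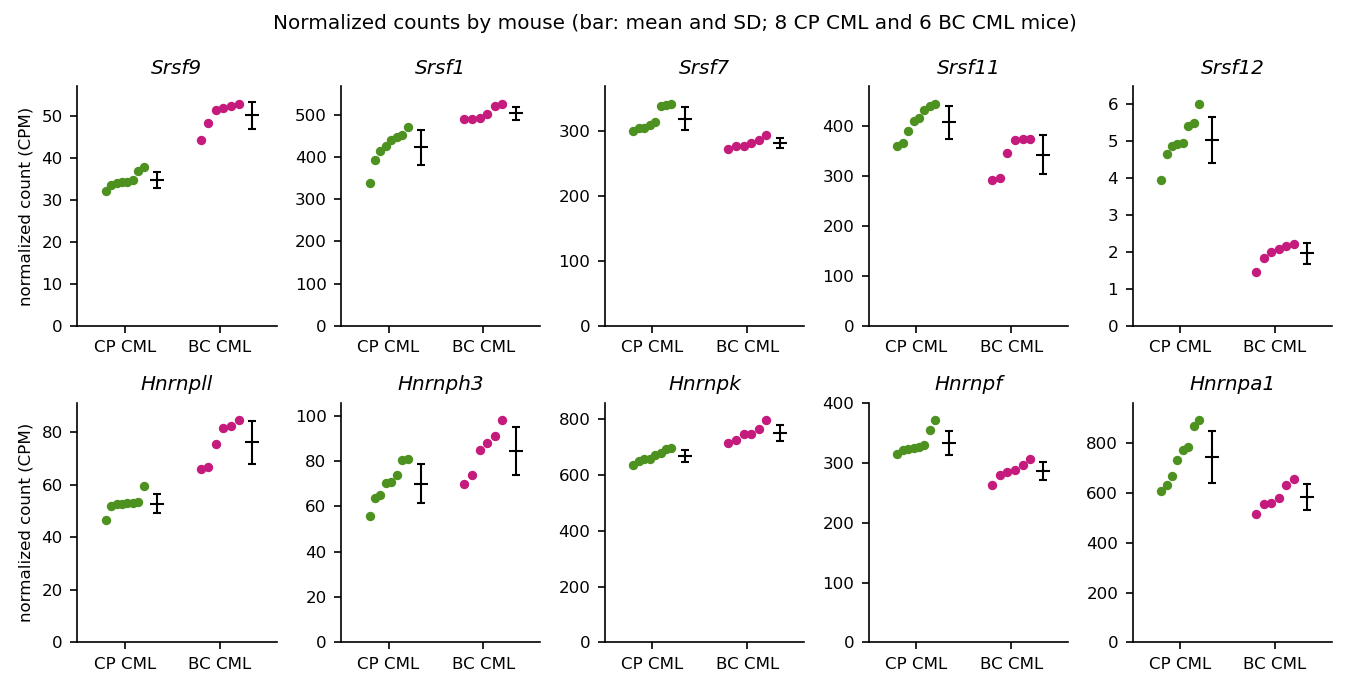
Normalized counts (CPM, vertical axes from 0) of 5 SR and 5 hnRNP genes, with 1 point per mouse sorted within each group and the mean and SD as a bar. The groups are separate for Srsf9, Srsf1, Srsf7, Srsf12, Hnrnpll, Hnrnpk and Hnrnpf, and overlap for Srsf11, Hnrnph3 and Hnrnpa1, whose CP CML mice spread from 607 to 892.

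Hnrnpll, the regulator of Ptprc exon skipping (chr17:80029487-80062268, minus strand), was the hnRNP gene with the greatest rise. Its normalized counts were 46.7, 52.8 and 59.6 CPM in CP CML and 66.1, 78.5 and 84.5 CPM in BC CML, without overlap. The mean went from 52.8 ± 3.48 (SD, n = 8) to 76.1 ± 8.12 (SD, n = 6) CPM, with a log2 fold change of 0.53 (SE 0.062, adjusted p = 7.78e-07), and 0.54 (SE 0.11, adjusted p = 0.0011) with the myeloid score. Hnrnpl, its paralogue, had a log2 fold change of -0.060 (SE 0.032, adjusted p = 0.106). The log2 ratio of Hnrnpll to Hnrnpl counts in a mouse, which needs no scaling and was chosen after the values were seen, was -2.98 to -2.49 in CP CML and -2.32 to -1.98 in BC CML. Exon usage of Ptprc cannot be read from counts per gene.

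Hnrnph3 belongs with Hnrnph1, Hnrnph2 and Hnrnpf to the group that binds runs of G. Hnrnph3 counts were 55.7, 70.4 and 80.8 CPM in CP CML and 69.8, 86.5 and 97.9 CPM in BC CML, and the groups overlapped. It rose with a log2 fold change of 0.27 (SE 0.087, adjusted p = 0.0133), and 0.46 (SE 0.14, adjusted p = 0.0179) with the myeloid score. It shares 3.65% of its exonic bases with Rufy2 on the opposite strand. Hnrnpf fell, from 315, 325 and 371 CPM to 263, 286 and 306 CPM without overlap, with a log2 fold change of -0.22 (SE 0.044, adjusted p = 2.77e-04), and -0.24 (SE 0.078, adjusted p = 0.0224) with the myeloid score. Hnrnph1 and Hnrnph2 had log2 fold changes of -0.028 and -0.079 and were not called, so that within this group of 4, 1 gene rose, 1 fell and 2 did not pass the test.

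Hnrnpk, a poly(C)-binding protein with KH domains and roles in transcription as well as splicing, counted 638, 666 and 696 CPM in CP CML and 717, 748 and 797 CPM in BC CML. The groups did not overlap, although the rise was small, with a log2 fold change of 0.17 (SE 0.034, adjusted p = 3.48e-04). The call was lost with the myeloid score, at 0.12 (SE 0.061, adjusted p = 0.126).

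Hnrnpa1, the best studied antagonist of Srsf1 in splice site choice, had the greatest fall among the hnRNP genes. It counted 607, 752 and 892 CPM in CP CML and 514, 569.6 and 658 CPM in BC CML, with overlap. The log2 fold change was -0.35 (SE 0.086, adjusted p = 0.00188), and -0.30 (SE 0.15, adjusted p = 0.122) with the myeloid score. Hnrnpa1 has 9 near-identical gene copies, all pseudogenes (at least 95% identity over at least 50% of the coding sequence), so that its count is uncertain by what the counting did with shared reads. The related Hnrnpa2b1, Hnrnpa3 and Hnrnpa0 had log2 fold changes of 0.038, -0.032 and -0.10 and were not called.

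Hnrnpul1 and Hnrnpul2, relatives of the nuclear scaffold protein Hnrnpu, fell with no overlap. Hnrnpul1 counted 304, 327 and 353 CPM in CP CML and 271, 273 and 293 CPM in BC CML, and its log2 fold change was -0.24 (SE 0.038, adjusted p = 3.16e-05). Hnrnpul2, with the narrowest spread in CP CML, counted 476, 481 and 505 CPM in CP CML and 418, 426 and 438 CPM in BC CML, with a log2 fold change of -0.19 (SE 0.030, adjusted p = 2.80e-05). Both kept their call with the myeloid score, at -0.29 and -0.21. Hnrnpu itself, the member with an 8mer of miR-142-3p, had a log2 fold change of 0.043 (SE 0.040, adjusted p = 0.364).

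Hnrnpd (AUF1) and its relatives Hnrnpdl and Hnrnpab bind AU-rich RNA and mRNA stability elements. Hnrnpd ran at 268, 328 and 357 CPM in CP CML and 234, 288 and 311 CPM in BC CML, with overlap, and fell with a log2 fold change of -0.19 (SE 0.071, adjusted p = 0.027). Hnrnpdl and Hnrnpab fell with log2 fold changes of -0.18 and -0.11. The calls of Hnrnpd and Hnrnpab (adjusted p = 0.038) did not hold in every fit with 1 mouse left out. Hnrnpab was no longer called without CP CML replicate 2, 3, 5 or 7 or BC CML replicate 1, 2, 4 or 6 (adjusted p = 0.053 to 0.102), and Hnrnpd without CP CML replicate 4 or 7 or BC CML replicate 1 or 2 (adjusted p = 0.051 to 0.071). With the myeloid score, Hnrnpd, Hnrnpdl, Hnrnpab and Hnrnpr were not called. The log2 fold change was then -0.17 (SE 0.12, adjusted p = 0.313) for Hnrnpd, -0.15 (SE 0.10, adjusted p = 0.252) for Hnrnpdl and -0.14 (SE 0.080, adjusted p = 0.178) for Hnrnpab, similar in size to those without the score but with larger standard errors, and -0.079 (SE 0.082, adjusted p = 0.474) for Hnrnpr. Hnrnpr, a relative of the RNA-binding protein Syncrip, fell with -0.17 in the comparison without the score. The groups overlapped for Hnrnpdl, Hnrnpab and Hnrnpr. The 9 members without a call lay between -0.10 and 0.043, with adjusted p-values between 0.085 and 0.726, and the groups overlapped for each. Hnrnpc, which binds runs of U, was one of them, at 286, 311 and 365 CPM in CP CML and 291, 323 and 352 CPM in BC CML.

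Members differ in how much sequence they share with other loci. By the same identity limits, 10 of the 31 members have a near-identical copy at another locus of the annotation, with 24 for Hnrnpa3, 9 for Hnrnpa1 and 6 for Hnrnpf, whereas Srsf1, Srsf9, Srsf12 and Hnrnpll have none. Exons overlap a gene on the opposite strand for 6 members: Srsf4 (43.0% of its exonic bases, with Gm12992, which also matches its coding sequence), Hnrnpab (29.1%, Phykpl), Srsf2 (15.6%, Mettl23), Hnrnpu (6.93%, Cox20), Hnrnpk (5.10%, Rmi1) and Hnrnph3 (3.65%, Rufy2). Of these partners Cox20 rose (log2 fold change 0.33) and Mettl23 and Rmi1 fell (-0.27 and -0.24). Because the strand setting of the counting is not stated, reads of such partners cannot be told apart.

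SR proteins act through their phosphorylation, so 6 further lists were read in the same fit, beside the 32.6% higher and 32.7% lower among all tested genes (30.7% and 38.4% at an average log2 CPM of at least 5). Among 11 kinases and import receptors of SR proteins, 2 rose and 4 fell. Srpk1, the main cytoplasmic SR kinase, counted 245, 264 and 281 CPM in CP CML and 159.8, 172 and 189 CPM in BC CML, without overlap, and fell with a log2 fold change of -0.62 (SE 0.044, adjusted p = 1.32e-09). Srpk2 fell with -0.39 (SE 0.037, adjusted p = 5.84e-08). Srpk3, a kinase known from muscle, rose with 2.19 (SE 0.36, adjusted p = 5.61e-05), but at 0.739 to 3.36 mean CPM and 4 to 22 reads in the CP CML mice, and was not called with the myeloid score, at 0.45 (SE 0.52, adjusted p = 0.522). Clk4, a nuclear SR kinase, rose with 0.21 (SE 0.042, adjusted p = 2.91e-04). With the score 1 gene of this list rose and 3 fell, and over 1.2-fold 1 rose and 2 fell. Among 13 SR-like coactivators, 2 rose (Tra2a with 0.41 and Luc7l3 with 0.35 on the log2 scale) and 1 fell (Rbm25, -0.24). With the score Luc7l3, at 0.24 (SE 0.11, adjusted p = 0.100), and Rbm25, at -0.11 (SE 0.068, adjusted p = 0.229), were not called, so that 1 rose and 0 fell, as over 1.2-fold, whereas 2 fell with upper quartile factors. Among 11 tested hnRNPs filed under other symbols, 1 rose (Pcbp4, 0.44) and 2 fell (Ptbp3, -0.23, and Pcbp2, -0.13), and 8 were not called. With the score Pcbp2, at -0.15 (SE 0.059, adjusted p = 0.05003), was not called, and over 1.2-fold 0 fell. The number that rose was 2 with DESeq2, RLE factors, the filter at 1 CPM, the replicate block, or without CP CML replicate 1, 7 or 8 or BC CML replicate 2 or 5.

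Among 12 other splicing regulators, 5 rose and 4 fell. Celf2, a CELF protein known to change splicing upon T cell stimulation, rose with 0.54 (SE 0.035, adjusted p = 3.55e-10) and Qk, an RNA-binding STAR protein, with 0.51 (SE 0.068, adjusted p = 3.81e-06). Mbnl3 fell with -0.56 (SE 0.053, adjusted p = 5.36e-08) and Khdrbs1 (Sam68) with -0.27 (SE 0.065, adjusted p = 0.00157). With the score Khdrbs1, at -0.28 (SE 0.11, adjusted p = 0.0578), was not called, and 5 rose and 1 fell. Over 1.2-fold 4 rose and 1 fell. The core spliceosome held 47 tested genes, of which 30 fell and 5 rose, with a median log2 fold change of -0.18, where 32.7% of all tested genes fell and 32.6% rose. With the score 21 fell and 3 rose, and over 1.2-fold 9 fell and 0 rose, where 14.3% of all tested genes fell and 20.8% rose. Snrpg and Snrpe, Sm ring proteins of the snRNPs, fell with -0.60 (SE 0.046, adjusted p = 2.76e-09) and -0.60 (SE 0.050, adjusted p = 1.18e-08), and Snrnp70 and Snrpa, proteins of the U1 snRNP, rose with 0.30 (SE 0.074, adjusted p = 0.00189) and 0.25 (SE 0.045, adjusted p = 8.69e-05). Another U1 protein gene, Snrpc, fell with -0.22 (adjusted p = 0.00571). Among other Sm ring genes Snrpb, Snrpd3 and Snrpf fell, Snrpd1 rose with 0.18 (adjusted p = 0.00129) and Snrpd2 was not called. With the score, Snrpf alone of these further genes kept its call. Among 10 genes of nonsense-mediated decay, the pathway that degrades SR transcripts with poison exons, 2 rose (Smg6, 0.16, and Upf1, 0.13) and 3 fell (Smg8, -0.46, and Smg9, -0.27, among them). With the score Upf1, at 0.17 (SE 0.072, adjusted p = 0.0625), and Smg9, at -0.17 (SE 0.10, adjusted p = 0.191), were not called. The other fallen gene, Smg5, also lost its call, at -0.060 (SE 0.080, adjusted p = 0.584). Upf2 was called only with the score, at -0.19 (SE 0.062, adjusted p = 0.0203), so that 1 rose (Smg6) and 2 fell (Smg8 and Upf2). Over 1.2-fold 0 rose and 1 fell, 1 rose with the replicate block and 5 fell with upper quartile factors. Over the 6 lists, 17 of 104 tested genes rose and 44 fell, a called share of 58.7% against 65.2% of all tested genes. With the myeloid score 12 rose and 28 fell, while over all tested genes the number higher went from 3987 to 2447 and the number lower from 3999 to 2501.

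**Figure D5:**
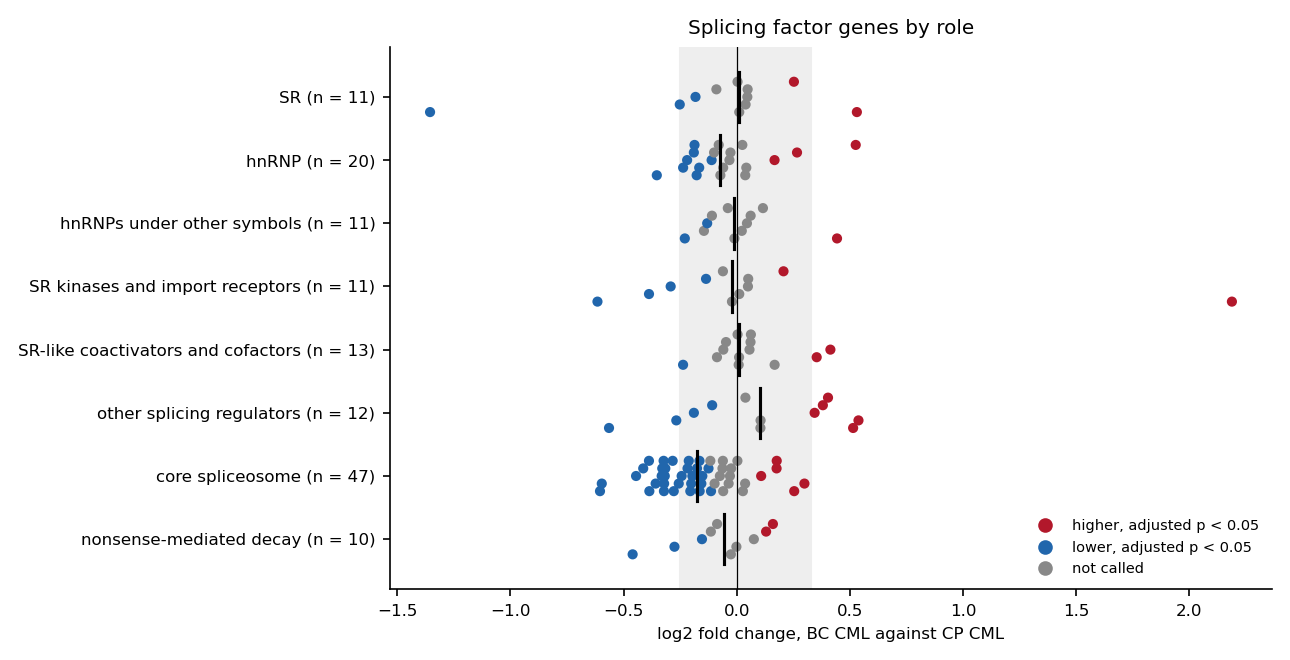
Log2 fold change of BC CML against CP CML (horizontal axis) for each tested gene of the 2 families and 6 further lists, coloured by call, with the list's median as a black bar and the middle 50% of all tested genes shaded. The core spliceosome genes lie mostly to the left, with a median of -0.18, and the SR and hnRNP medians lie near 0 (0.011 and -0.076).

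The annotation shows another trait that the choice by symbol did not use. In GENCODE vM21, 9 of 11 SR genes and 10 of 20 hnRNP genes have an annotated transcript subject to nonsense-mediated decay, against 29.6% of 11522 tested protein-coding genes. Retained-intron transcripts are annotated for 8 and 14 of them, against 60.6%. Such transcripts add to the counts of a gene, and their share in these libraries cannot be read from counts per gene. The members have from 1 (Hnrnpa0) to 34 (Hnrnpk) annotated transcripts each. No background matched for the number of transcripts or for expression was drawn.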

How the data were processed

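The mRNA libraries of T cells from the spleen were used, 1 for each of 8 CP CML and 6 BC CML mice. Groups and replicate numbers were taken from the sample labels. The authors trimmed reads of 101 bases with Trimmomatic and FASTP, aligned them to mm10 with STAR 2.6.0, counted them per gene with HTSeq-count 0.11.1 and deposited raw counts for 24091 genes with position and length. The annotation and strand setting of the counting are not given in the sources used here.

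The deposited counts were filtered with filterByExpr, which left 12248 genes, scaled by TMM factors and fitted in R 4.3.3 with edgeR 4.0.16 (limma 3.58.1 loaded). Its quasi-likelihood test (robust glmQLFit, glmQLFTest) was run for BC CML against CP CML, two-sided and without covariate, with Benjamini-Hochberg adjustment over all genes tested and a threshold of 0.05. The fits were first tested on simulated counts. Standard errors were computed from the fold change and the F statistic. CPM values use TMM factors, and RPKM values divide them by the listed length. The total reads per library were 15703702 to 19914531, and the standard errors include both counting error and the differences between mice.

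All pairs of libraries of a group were compared before averaging. Their chi-square per degree of freedom was at least 2.99, where sampling noise alone gives 1 and each was kept as a separate replicate. The labels name separate mice. Replicate numbers do not pair them, since the mice are different animals. The correlation of deviations of same-numbered mice was -0.27 to 0.36.

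The members and gene lists were chosen with earlier results of these data known. The named genes are all members, with full values for up to 4 risen and up to 4 fallen of each family, those with the largest change among the called, for Srsf1 and for Hnrnpll, and up to 2 risen and 2 fallen genes of each further list, chosen likewise, besides Mir142, Tspoap1 and the marker genes. Genes between Mir142 and Srsf1, the values of called members beyond that rule, such as Hnrnpul2, the uncalled members with values and the paralogue ratios were added after the values were seen. So were further genes of the lists beyond that rule, such as Smg5, Upf2 and Snrpc. The myeloid score was the mean log2 CPM (prior count 2) of 12 myeloid markers. Alternatives comprised DESeq2 1.42.0, edgeR's likelihood ratio test, RLE, upper quartile or no factors, no filter, more than 1 CPM in at least 6 samples, a 1.2-fold threshold (glmTreat), the myeloid score, a replicate block, and each mouse left out in turn. 3′UTRs and transcript types came from GENCODE vM21, near-identical copies from BLAST 2.17.0, and microRNA sequences from RefSeq (GRCm38.p6).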

Additional observations from a re-analysis of the deposited data

Results flagged for a closer look

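Of 80 groups of values examined (the 31 members, the 2 family sums, the 6 marker sums and the total reads, each within CP CML and within BC CML), 3 held a mouse whose gap to its nearest neighbour was large for the range of its group. About 1 in 20 groups, or 4 of 80, is flagged by chance. Hnrnpa0 was highest in BC CML replicate 6, at 239.9 CPM against 214 in the next mouse. Without that mouse Hnrnpa0 was called lower (log2 fold change -0.14, adjusted p = 0.014, edgeR's quasi-likelihood test). The other member to gain a call with 1 mouse left out was Hnrnph2, without CP CML replicate 3 (log2 fold change -0.098, adjusted p = 0.0393). Srsf4 was highest in BC CML replicate 2, at 113 CPM against 105 in the next mouse, and stayed without a call when that mouse was left out. The total reads were lowest in BC CML replicate 2, at 16145537 against 18319039 in the next mouse.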

How the results depend on the processing

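The counts of calls over all genes, over each family and over the 6 further lists pooled stayed within 1.5 times their value under the likelihood ratio test, DESeq2, RLE factors, library size alone, upper quartile factors, the replicate block and the 2 other filters, though those of single lists did not always. With each mouse left out, all genes called ranged from 7721 to 7966 (3861 to 3977 higher, 3847 to 3989 lower), SR genes stayed at 2 higher and 3 lower, hnRNP genes at 3 higher and 6 to 8 lower, and the 6 further lists at 17 to 19 higher and 43 to 45 lower. A threshold of 1.2-fold left 4304 of all genes (2548 higher, 1756 lower), 1 SR gene higher and 1 lower, 1 hnRNP gene higher and 0 lower, and 7 listed genes higher and 13 lower. The myeloid score left 4948 of all genes (2447 higher, 2501 lower), 1 SR gene higher and 1 lower, 2 hnRNP genes higher and 3 lower, and 12 listed genes higher and 28 lower. It raised the median standard error of the members from 0.047 to 0.080, and 9 of 16 member calls were lost and 0 gained. The score and the group cannot be fully told apart, and the cause of the lost calls was not tested. Log2 fold changes near 0 turned their sign, always without a call: Srsf6 at -0.0059 with library size alone, -0.029 with upper quartile factors and -0.0051 with the replicate block, Hnrnpc at -0.0080 and Srsf3 at -0.022 with upper quartile factors, and, with the myeloid score, Srsf3 at -0.070, Srsf10 at -0.018, Hnrnpa3 at 0.015 and Hnrnph1 at 0.067. With 1 mouse left out, Srsf6 ranged from -0.020 to 0.030, Hnrnpc from -0.0025 to 0.056 and Srsf3 from -0.018 to 0.026. Without the reads of Tspoap1 the SR share changed by 22.8 and the hnRNP share by -210.5 CPM of the total reads. Without correction for length, 3 of the 5 highest SR genes remained among the 5 highest. The replicate block, over the mice numbered 1 to 6, ended the calls of Hnrnpab, Hnrnpd and Hnrnph3 (log2 fold changes -0.10, -0.16 and 0.25). The numbers do not pair the mice. Upper quartile factors added calls of Hnrnpa0, Hnrnph2 and Hnrnpl, all lower. Srsf12, with at least 28 reads per mouse, is the member whose depth limits it most.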
